A study of Mus musculus with 2 samples.

Results

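The inflammasome genes examined here are 9 genes chosen by symbol: the sensors Nlrp3, Aim2 and Nlrc4, the adaptor Pycard, the proteases Casp1 and Casp4, the pore-forming protein Gsdmd and the cytokines Il1b and Il18. All 9 were found, each as 1 of the 32285 genes in the deposited tables. They were followed in cells of the cortex of 4-month-old male mice in 1 library labelled Fam69c knockout and 1 library labelled Fam69c wild type. The cortices of the mice of a genotype were pooled before dissociation, and the cells were stained with 7-AAD, a dye for dead cells, and sorted before droplet capture with 10x 3' v3.1 chemistry. The labels give no strain, no allele and no deleted part of the gene, and name a number of mice without saying whether it is the number per genotype.

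An inflammasome is a protein assembly of innate immune cells. A sensor such as NLRP3 recognises damage or microbial products and gathers the adaptor ASC, the product of Pycard, which recruits caspase-1. Caspase-1 cuts the precursors of interleukin-1 beta and interleukin-18 into their active forms and cuts gasdermin D, whose fragment opens pores in the cell membrane. The messenger RNA of Nlrp3 and Il1b is induced by a priming signal through NF-kB, so RNA levels describe the supply of components and not the activity of the assembly. In brain the components are best known from microglia, the resident immune cells.

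After filtering, 6931 cells of the knockout library and 4857 of the wild-type library were kept, with a median of 8405 UMIs (unique molecular identifiers, counted molecules) per knockout cell and 8629 per wild-type cell. The targeted gene, listed under its other symbol Dipk1c, had 1234 UMIs or 20.3 CPM (UMIs scaled to 1000000 of the cells concerned) in the knockout library, against 1512 UMIs or 32.3 CPM in the wild-type library. As the deleted part is not known and the reads come from the 3' end, this does not check the labels, and the libraries are called knockout and wild type as labelled. Cells were assigned to types by scaled levels of marker genes. Microglia numbered 286 and 226 in the knockout and the wild-type library, and neutrophils 108 in the knockout and 41 in the wild-type library. Monocytes numbered 68 knockout and 21 wild-type cells, and astrocytes 3992 knockout and 1961 wild-type cells. Only 8 knockout and 4 wild-type cells were assigned to macrophages. Some 424 knockout and 575 wild-type cells passed no gate. The gated microglia were led by C1qa, Cx3cr1 and P2ry12, the neutrophils by S100a8, S100a9 and Retnlg, and the astrocytes by Slc4a4, Aldoc and Slc1a2. All of these but C1qa were markers used in the gate, so their lead is no independent check of the types. With 1 library per genotype no test was possible. Every interval given is an exact one at 95% and reflects counting error alone, and animals, dissection and library cannot be told apart from genotype.

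By CPM, 8 of the genes were highest in microglia, monocytes or neutrophils in both libraries, and Il18 was highest in astrocytes. Rankings by CPM leave out cells that passed no gate and types with too few cells. These types were macrophages, dendritic cells, oligodendrocyte precursors and, in the wild-type library, natural killer cells. Astrocytes held 86.5% of the Il18 UMIs of the knockout library and 78.3% of those of the wild-type library, and oligodendrocytes held a further 7.38% in the knockout and 10.9% in the wild-type library. Neutrophils held 57.5% of the Il1b UMIs of the knockout library and 51.2% of those of the wild-type library. For Nlrp3, microglia held 35.7% of the UMIs in the knockout library and 46.9% in the wild-type library, and neutrophils held 30.7% in the knockout and 20.5% in the wild-type library. Microglia also held the largest share of Aim2, with 38.5% of its UMIs in the knockout library and 44.5% in the wild-type library.

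**Figure D1:**
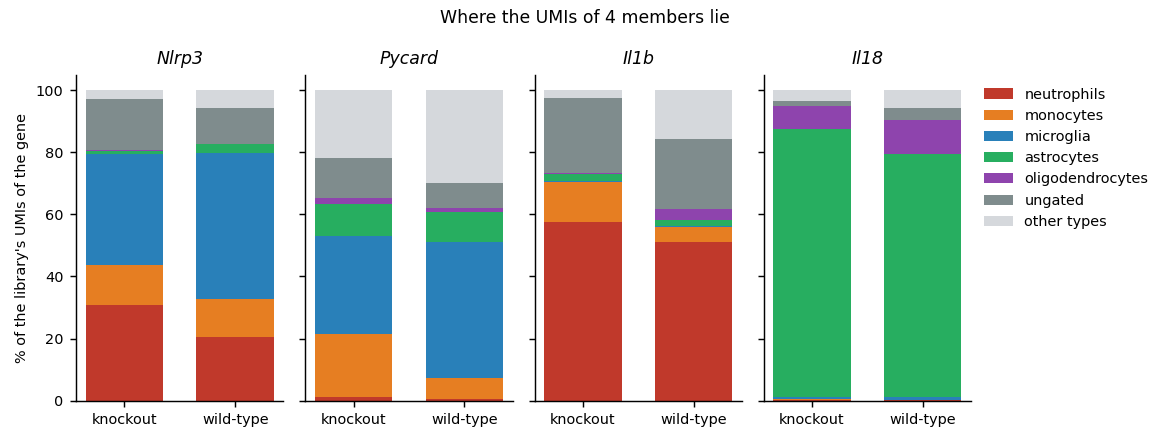
Share of each library's UMIs of Nlrp3, Pycard, Il1b and Il18 (y axis, percent) that lay in each cell type, for the knockout library (left bar) and the wild-type library (right bar). Neutrophils held 57.5% of knockout and 51.2% of wild-type Il1b UMIs, and astrocytes 86.5% of knockout and 78.3% of wild-type Il18 UMIs.

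Upstream sequences of members from both groups are shown because they let the motif content of genes with such unlike locations be compared. Sequences from RefSeq, build GRCm38.p6, were used for 8 of the 9 members, without Gsdmd, and the 250 bases before each start were searched on both strands for 3 motifs: a narrow string of the kappa B motif of NF-kB, GAGGAA (the core bound by PU.1-type ETS factors) and TTNNGNAA (C/EBP). The 4 shown were chosen after the matches had been seen, and capitals mark GAGGAA or its complement.
Nlrp3, chr11:59542436-59542685, plus strand: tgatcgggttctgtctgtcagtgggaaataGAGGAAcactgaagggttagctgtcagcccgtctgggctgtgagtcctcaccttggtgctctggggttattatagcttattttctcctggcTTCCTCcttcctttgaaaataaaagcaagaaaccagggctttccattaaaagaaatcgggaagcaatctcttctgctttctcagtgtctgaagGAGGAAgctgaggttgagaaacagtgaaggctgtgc
Aim2, chr1:173420354-173420603, plus strand: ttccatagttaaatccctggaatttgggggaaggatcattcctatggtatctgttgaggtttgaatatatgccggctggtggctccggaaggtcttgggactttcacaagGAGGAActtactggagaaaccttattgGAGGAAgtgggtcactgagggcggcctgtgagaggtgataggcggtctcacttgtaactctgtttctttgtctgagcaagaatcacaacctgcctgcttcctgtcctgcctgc
Il1b, chr2:129371140-129371389, minus strand: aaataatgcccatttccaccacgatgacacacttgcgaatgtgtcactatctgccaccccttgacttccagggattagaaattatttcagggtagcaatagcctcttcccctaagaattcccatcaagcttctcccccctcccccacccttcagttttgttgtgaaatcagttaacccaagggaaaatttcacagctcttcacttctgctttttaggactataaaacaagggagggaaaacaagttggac
Il18, chr9:50554450-50554699, plus strand: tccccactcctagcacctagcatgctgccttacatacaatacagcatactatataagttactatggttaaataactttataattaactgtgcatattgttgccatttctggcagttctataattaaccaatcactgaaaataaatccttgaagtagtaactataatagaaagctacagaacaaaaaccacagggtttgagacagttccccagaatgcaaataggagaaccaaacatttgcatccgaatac

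The ETS core matched 3 times before this start of Nlrp3, 2 times for Aim2 and 1 time each for Pycard and Casp1. It had no match before the other listed start of Nlrp3 or for Nlrc4, Casp4, Il1b or Il18, and 23.3% of all 32851 upstream windows of this length hold it. The C/EBP letters, held by 36.8% of windows, matched at least 1 time for Nlrp3, Nlrc4, Aim2, Pycard, Casp4 and Il1b, and not for Casp1 or Il18. For the kappa B motif only a narrow string was searched, which 0.356% of windows hold and no member's window held. Looser forms were not searched, and the Casp4 windows hold a string that fits a looser form. A match is a string of letters and not a shown binding site.

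Nlrp3, the sensor of membrane damage and potassium loss, was lower in knockout microglia, neutrophils and monocytes than in their wild-type counterparts. In microglia it had 85 UMIs or 61.0 CPM in the knockout library, against 137 UMIs or 94.9 CPM in the wild-type library, a ratio of 0.643 (0.485 to 0.849). In neutrophils it had 98.0 CPM in the knockout library and 166 CPM in the wild-type library, a ratio of 0.592 (0.415 to 0.847). In monocytes, a type added after the data had been seen, it had 31 UMIs or 32.6 CPM in the knockout library, against 36 UMIs or 104 CPM in the wild-type library, a ratio of 0.312 (0.187 to 0.519). The microglial difference depended on how cells were weighed: with each cell given the same weight it shrank to -0.24 on the log2 scale, from -0.64 with UMIs pooled. It also fell within 1.5-fold with Leiden clusters in place of the gate (-0.54) and relative to genes of like transcript length (-0.55). A Nlrp3 UMI was found in 22.7% of knockout microglia (18.0 to 28.0) and 38.9% of wild-type microglia (32.5 to 45.6), but knockout microglia had a median of 5288 UMIs and wild-type microglia 7206. After thinning to 1000 UMIs the share was 6.13% in knockout and 7.88% in wild-type microglia. In astrocytes, where the gene was near 0, the share was 0.0501% in the knockout library and 0.357% in the wild-type library. The 12 macrophages had no Nlrp3 UMI.

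In neutrophils the median log2 ratio over all 4627 genes was -0.29, and 33.2% of genes were lower past 1.5-fold in the knockout library. Scaled by trimmed means, Nlrp3 in neutrophils had a log2 ratio of -0.28, and relative to genes of like transcript length -0.38, both within 1.5-fold. Median mitochondrial shares also differed between neutrophils, at 0.626% in the knockout library and 4.34% in the wild-type library, and their part in the result was not tested.

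Microglia were further divided by chemokine RNA. The pooled median of Ccl3 plus Ccl4 was 0, so the division was between cells with and without a UMI of either. With one, Nlrp3 was at 39.0 CPM in 90 knockout microglia and 111 CPM in 93 wild-type microglia, a ratio of 0.353 (0.207 to 0.577). Without one, it was at 74.9 CPM in 196 knockout cells and 80.0 CPM in 133 wild-type cells, a ratio of 0.937 (0.648 to 1.36). The intervals of the ratios do not overlap, and the difference between them was not tested. Ccl3 and Ccl4 were themselves lower in knockout microglia, at ratios of 0.693 (0.634 to 0.757) and 0.390 (0.360 to 0.421). Finding a UMI also depends on depth, with a median of 5288 UMIs in knockout and 7206 in wild-type microglia. The parts may therefore not hold like cells in both libraries. Genes of the early response to stimulation and dissociation, a list of 16 that includes Ccl3, Ccl4, Fos and Jun, made up 1.98% of UMIs in knockout microglia and 2.47% in wild-type microglia. They made up 0.742% in knockout and 1.15% in wild-type neutrophils, and 1.02% in knockout and 1.40% in wild-type monocytes. Of the list, 0 of 16 genes were higher and 4 lower past 1.5-fold in microglia, where 8.88% of all genes were higher and 10.0% lower. In neutrophils 1 of 13 was higher and 8 lower, beside 9.47% and 33.2% of all genes. In monocytes 0 of 16 were higher and 8 lower, beside 15.3% and 15.9%, and in astrocytes 1 of 16 was higher and 2 lower, beside 4.75% and 11.4%. Whether Nlrp3 followed these genes was not tested.

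**Figure D2:**
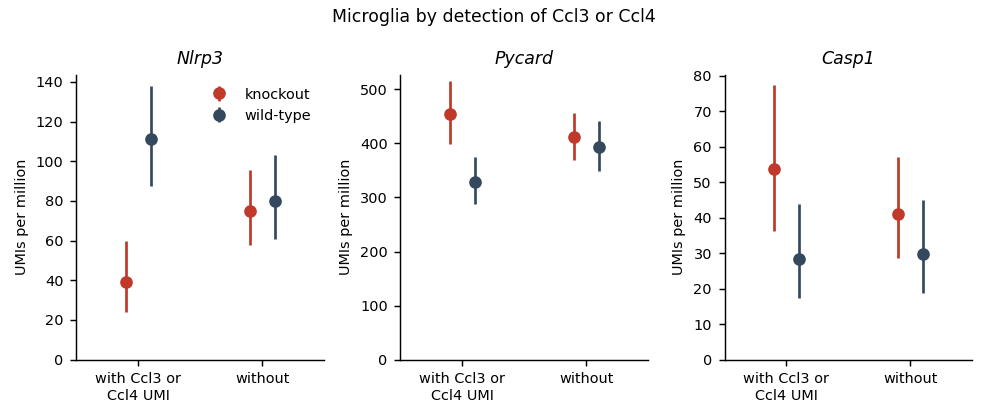
Level (y axis, CPM, with exact 95% counting intervals) of Nlrp3, Pycard and Casp1 in microglia with and without a Ccl3 or Ccl4 UMI, knockout left of wild type. In cells with such a UMI Nlrp3 was at 39.0 CPM in knockout and 111 CPM in wild type, and in cells without at 74.9 CPM in knockout and 80.0 CPM in wild type.

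Of the other sensors, Aim2, which binds DNA in the cytosol, was highest in microglia in both libraries, at 91.2 CPM in the knockout library and 112 CPM in the wild-type library. The ratio of 0.818 had an interval that includes 1 (0.643 to 1.04). Next came monocytes, with 31.5 CPM of Aim2 in the knockout and 34.8 CPM in the wild-type library, and B cells, with 26.9 CPM in the knockout and 59.0 CPM in the wild-type library, and their intervals overlap. It was also counted in neuroblasts, with 57 UMIs or 10.9 CPM in the knockout library and 42 UMIs or 12.1 CPM in the wild-type library. In neuroblasts with a UMI of the cell cycle genes Top2a or Mki67 it was at 12.6 CPM (9.24 to 16.8) in the knockout library. In the wild-type library it was at 17.0 CPM (12.1 to 23.2) in such cells. Neuroblasts without one had 11 Aim2 UMIs or 6.85 CPM (3.42 to 12.2) in the knockout library. In the wild-type library they had only 2 UMIs or 1.79 CPM (0.217 to 6.46). Nlrc4, which works with NAIP proteins to detect bacterial flagellin, had 0 UMIs in knockout and 1 in wild-type microglia, and only 46 UMIs in all knockout cells and 56 in all wild-type cells. Among the ranked types it was highest in monocytes, at 11.6 CPM in the knockout library and 20.3 CPM in the wild-type library. In both libraries its intervals in monocytes and B cells overlap. A gene on its own strand, CT033749.1, overlaps it, so its UMIs are uncertain.

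Pycard, the adaptor, was highest in microglia in both libraries, though in the knockout library its intervals in microglia and monocytes overlap. In microglia it was at 428 CPM in the knockout library and 362 CPM in the wild-type library, a ratio of 1.18 (1.05 to 1.33). In monocytes it was at 399 CPM in the knockout library and 226 CPM in the wild-type library, a ratio of 1.76 (1.38 to 2.28). Both types had less Nlrp3 in the knockout library. Natural killer cells had 274 CPM in the knockout and 301 CPM in the wild-type library, and T cells 175 CPM in the knockout and 163 CPM in the wild-type library. In a group of cells led by Mgp and Igfbp6, 117 in the knockout and 48 in the wild-type library, Pycard was at 92.3 CPM in the knockout library and 71.9 CPM in the wild-type library. The antisense gene Gm45205 overlaps Pycard.

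Casp1, the protease of the assembly, was highest in monocytes, at 95.7 CPM in the knockout library and 110.3 CPM in the wild-type library, a ratio of 0.867 (0.588 to 1.30). In microglia it was at 46.0 CPM in the knockout library and 29.1 CPM in the wild-type library, a ratio of 1.58 (1.05 to 2.39), or 0.66 on the log2 scale, which fell within 1.5-fold with each cell weighed the same (0.56) and relative to genes of like transcript length (0.46). The ratio was 1.90 (1.04 to 3.54) in microglia with a Ccl3 or Ccl4 UMI and 1.37 (0.784 to 2.46) in those without. In neutrophils it had 38 UMIs in the knockout library and 8 in the wild-type library, a ratio of 2.31 (1.06 to 5.73). Casp4, which in mice is the caspase-11 gene and senses lipopolysaccharide inside cells, was highest in neutrophils. It was at 125 CPM there in the knockout library and 80.0 CPM in the wild-type library, a ratio of 1.56 (1.02 to 2.46), while in microglia the ratio was 0.964 (0.611 to 1.52). In the wild-type library the Casp4 intervals of neutrophils and monocytes overlap. Gsdmd, the pore protein, was at 92.6 CPM in knockout and 94.9 CPM in wild-type microglia, a ratio of 0.976 (0.761 to 1.25). In monocytes it was at 104 CPM in the knockout library and 98.7 CPM in the wild-type library, a ratio of 1.05 (0.708 to 1.61).

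**Figure D3:**
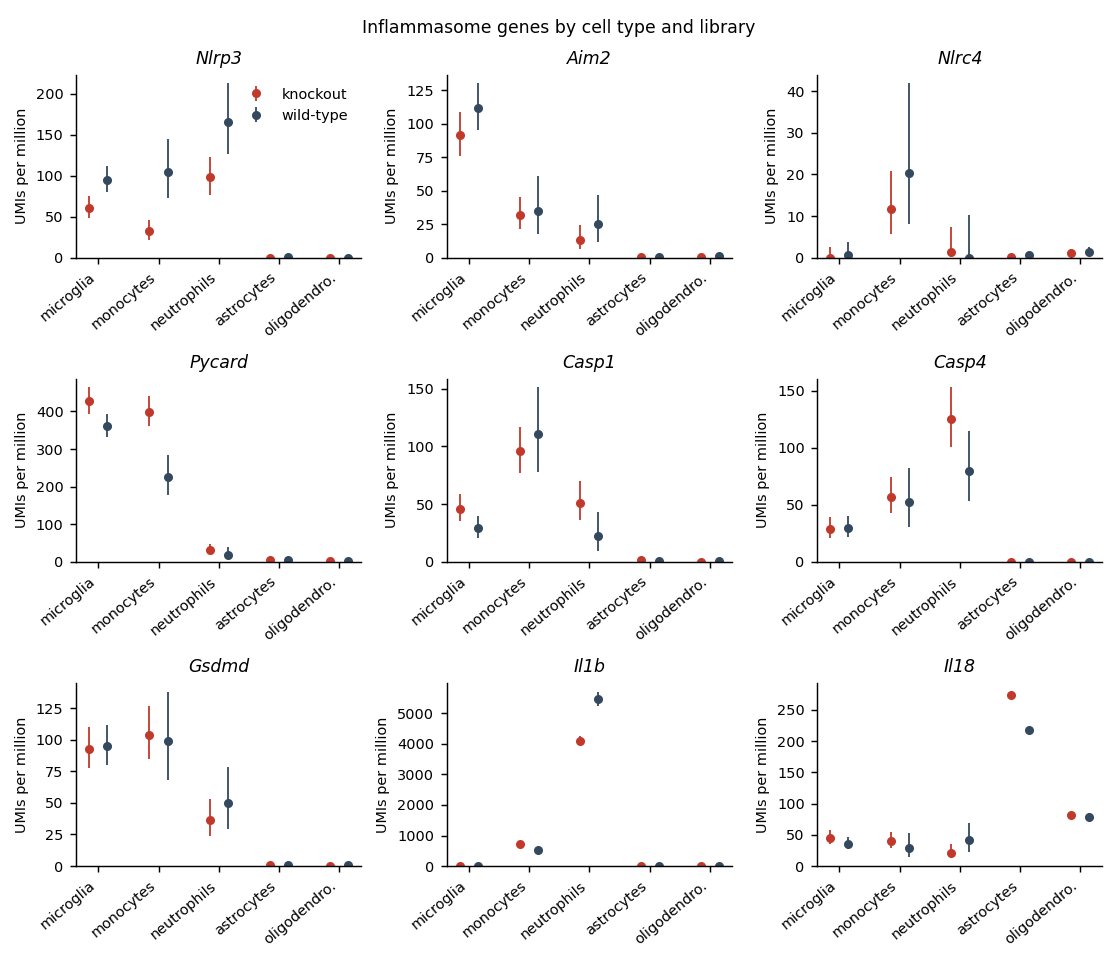
Level (y axis, CPM of the cell type, exact 95% counting intervals) of the 9 genes in 5 cell types, knockout left of wild type. Nlrp3 lay below the wild-type level in all 3 myeloid types, and Il18 was highest in astrocytes, at 274 CPM in knockout and 217 CPM in wild type.

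Il1b, the gene of the interleukin-1 beta precursor, was at 4108 CPM in knockout neutrophils and 5466 CPM in wild-type neutrophils, a ratio of 0.751 (0.710 to 0.796). Per cell, the median was 40.6 UMIs per 10000 in the knockout library and 79.7 in the wild-type library, and a UMI was found in 96 of 108 knockout and 39 of 41 wild-type neutrophils. Trimmed mean scaling turned the direction, to 0.06 on the log2 scale. Cells with at least 50 UMIs per 10000 of the granule genes Ngp, Camp and Ltf, which mark immature neutrophils, were 8 in the knockout library and 4 in the wild-type library. In these Il1b had 89 UMIs or 765 CPM in the knockout library and 35 UMIs or 325 CPM in the wild-type library, a ratio of 2.36 (1.58 to 3.59). That interval leaves out the spread between so few cells. In the other neutrophils it was at 4727 CPM in the knockout library and 7643 CPM in the wild-type library, a ratio of 0.618 (0.584 to 0.655). In monocytes the order was opposite, at 723 CPM in the knockout library and 517 CPM in the wild-type library, a ratio of 1.40 (1.19 to 1.66). A UMI was found in 45 of 68 knockout and 10 of 21 wild-type monocytes, and this interval too leaves out the spread between cells.

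**Figure D4:**
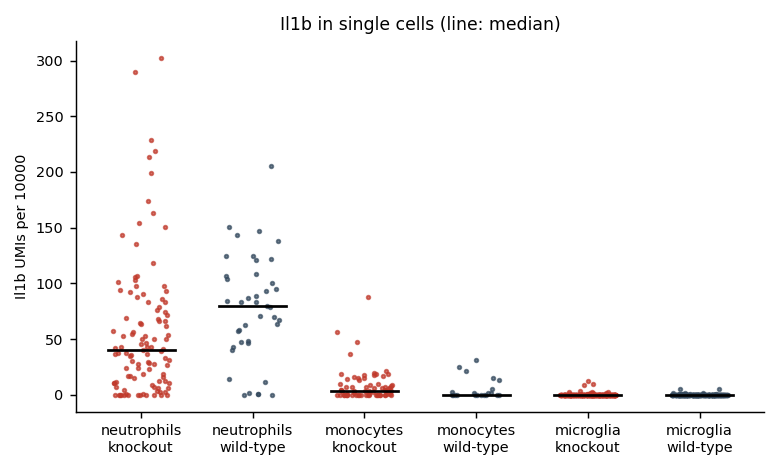
Il1b UMIs per 10000 UMIs (y axis) in each neutrophil, monocyte and microglial cell, knockout left of wild type, with the median as a line. The neutrophil median was 40.6 in knockout and 79.7 in wild type, and both microglial medians were 0.

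Microglia held little Il1b. They had 24 UMIs or 17.2 CPM in the knockout library and 17 UMIs or 11.8 CPM in the wild-type library, a ratio of 1.46 (0.754 to 2.90). A UMI was found in 4.20% of knockout and 4.87% of wild-type microglia, against 1.60% of knockout and 2.19% of wild-type astrocytes, taken here as the background, which had more UMIs per cell. Per 100 UMIs of the neutrophil genes S100a8 and S100a9, knockout microglia had 17.3 Il1b UMIs and wild-type microglia 24.6, and knockout neutrophils had 1.51 and wild-type neutrophils 2.85. The microglial values rest on only 139 and 69 UMIs of these genes, with intervals of 11.1 to 25.7 and 14.4 to 39.4. Knockout monocytes had 12.0, and cells that passed no gate 16.1 in the knockout and 17.9 in the wild-type library. Astrocytes had 3.88 in the knockout and 3.68 in the wild-type library. The source of the microglial Il1b UMIs was not tested. The microglial Il1b level depended on the doublet call: with the called doublets kept, microglia were at 44.7 CPM in the knockout library and 11.5 CPM in the wild-type library. In several other types single cells set the level. In the wild-type library 1 cell gave 153 of the 158 Il1b UMIs of B cells, 1 gave 120 of the 123 of T cells and 1 gave 109 of the 139 of oligodendrocytes. In the knockout library 1 cell gave 44 of the 52 Il1b UMIs of macrophages, so no ratio is read there. Of the pathway genes, macrophages had 399.8 CPM of Txnip in the knockout library and 1974 CPM in the wild-type library. Cd14 was at 399.8 CPM in the knockout and 389 CPM in the wild-type library, and Ifi204, a DNA sensor, at 199.9 CPM in the knockout and 419 CPM in the wild-type library. These rest on 9 to 66 UMIs, and 5 of the 8 knockout macrophages lay near the gate's limit. Without the top cell of each library the ratio of Ifi204 turned to 1.10, against 0.477, and that of Cd14 was 1.74, against 1.03. Erythroid cells, 1.73% of the knockout and 15.9% of the wild-type library, had 21 Il1b UMIs or 15.7 CPM in the knockout library and 292 UMIs or 125 CPM in the wild-type library, where 1 cell gave 81 of them. The antisense gene Il1bos overlaps Il1b.

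Il18, which drives interferon gamma production once cleaved, was at 274 CPM in knockout astrocytes and 217 CPM in wild-type astrocytes, a ratio of 1.26 (1.22 to 1.31). A UMI was found in 78.1% of knockout astrocytes, with a median depth of 8869 UMIs, and in 82.5% of wild-type astrocytes, with a median of 12376. After thinning to 1000 UMIs it was found in 22.8% of knockout and 19.6% of wild-type astrocytes. The ratio was 1.30 (1.20 to 1.40) in astrocytes with a UMI of Gfap, a marker of reactive astrocytes, and 1.26 (1.21 to 1.31) in those without. Over 14885 genes in astrocytes, transcript length and the log2 ratio had a rank correlation of -0.44. The 745 genes with transcripts of like length to Il18 had a median log2 ratio of 0.32 in astrocytes, against 0.34 for Il18, which leaves 0.02. Oligodendrocytes had 81.2 CPM in the knockout library and 78.8 CPM in the wild-type library, a ratio of 1.03 (0.930 to 1.14). Erythroid cells ranked between astrocytes and oligodendrocytes, at 91.8 CPM in the knockout and 84.9 CPM in the wild-type library. Their intervals overlap those of oligodendrocytes. Per 100 UMIs of the astrocyte markers, oligodendrocytes had 11.9 Il18 UMIs in the knockout library and 17.6 in the wild-type library, and astrocytes 1.13 in the knockout and 0.810 in the wild-type library. By the same measure monocytes had 9.84 in the knockout and 11.5 in the wild-type library, and microglia 3.86 in the knockout and 5.86 in the wild-type library. Erythroid cells had 1.37 in both libraries. Endothelial cells, at 1.24 in the knockout library (0.724 to 1.99) and 0.840 in the wild-type library (0.403 to 1.55), did not differ from astrocytes beyond counting error. Neither did mural cells, at 1.61 in the knockout (0.524 to 3.76) and 1.18 in the wild-type library (0.143 to 4.27). In the knockout library alone this also held for neutrophils (1.27, 0.728 to 2.07) and B cells (1.49, 0.485 to 3.48). The genes Bco2 and Tex12 overlap Il18 on the opposite strand.

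Across members, 29 ratios in microglia, neutrophils, astrocytes and monocytes rested on at least 20 UMIs. Of these, 13 had an interval that leaves out 1, and 9 of them were also past 1.5-fold. The share of all genes with such an interval was not computed, so these counts have nothing to be set against. In microglia 1 of 8 members was higher (Casp1) and 1 lower (Nlrp3) past that fold, where 8.88% of all 9503 genes were higher and 10.0% lower. In neutrophils 3 of 7 were higher (Pycard, Casp1, Casp4) and 2 lower (Nlrp3, Il18), beside 9.47% and 33.2% of all genes. Of these, the intervals of Pycard and Il18 include 1. In astrocytes 2 of 6 were higher (Casp1, and Gsdmd, whose interval of 0.976 to 4.10 includes 1) and 1 lower (Nlrc4), beside 4.75% and 11.4% of all genes, at levels of at most 1.92 CPM in either library, and Casp1 there had a log2 ratio of -0.04 with each cell weighed the same, against 0.85. In monocytes 1 of 8 was higher (Pycard) and 1 lower (Nlrp3), beside 15.3% and 15.9%. The members' median log2 ratio was 0.10 in microglia, -0.41 in neutrophils, 0.27 in astrocytes and 0.10 in monocytes, against -0.02, -0.29, -0.10 and -0.02 over all genes.

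**Figure D5:**
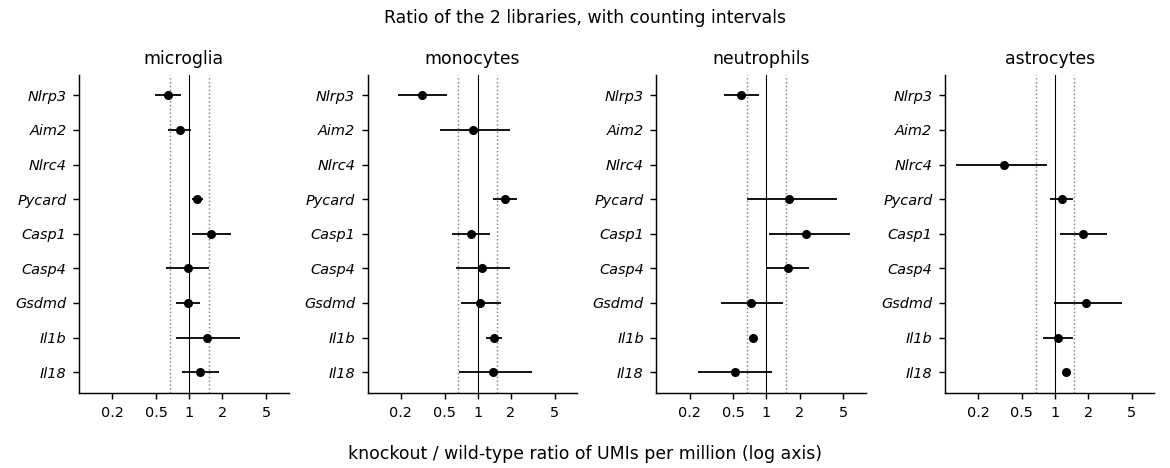
Ratio of CPM, knockout over wild type (x axis, log scale), with exact 95% counting intervals, for members with at least 20 UMIs in a type; dotted lines mark 1.5-fold. Nlrp3 lay at 0.643 in microglia, 0.312 in monocytes and 0.592 in neutrophils.

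Of 54 other genes of the pathway, 35 had at least 20 UMIs in microglia, of which 2 were higher and 10 lower past 1.5-fold, beside 8.88% and 10.0% of all genes. Naip6, of the family that passes bacterial signals to NLRC4, was at 12.2 CPM in the knockout library and 43.0 CPM in the wild-type library, a ratio of 0.284 (0.156 to 0.492). Nlrp1b, another sensor, had a ratio of 0.553 (0.348 to 0.863). Cd14, the co-receptor for lipopolysaccharide, was at 495 CPM in the knockout library and 320.1 CPM in the wild-type library, a ratio of 1.55 (1.37 to 1.75). The kinase gene Irak4, which relays interleukin-1 and Toll-like receptor signals, had a ratio of 1.75 (1.13 to 2.74). Nfkbia, the NF-kB inhibitor, was at 669 CPM in the knockout library and 491 CPM in the wild-type library, a ratio of 1.36, and Txnip, a thioredoxin-binding protein linked to NLRP3, 0.906 (0.848 to 0.969).

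In neutrophils 5 of 30 pathway genes were higher and 4 lower past 1.5-fold, beside 9.47% and 33.2% of all genes. Serpinb1a, a protease inhibitor that restrains caspase-1, was at 134 CPM in the knockout library and 295 CPM in the wild-type library, a ratio of 0.455 (0.343 to 0.603). Trim30a, described as a brake on NLRP3, had a ratio of 1.81 (1.38 to 2.40), Hmox1, the heme-degrading enzyme, 2.10 (1.21 to 3.87), and Cd300lf, an inhibitory receptor, 1.30 (1.06 to 1.61). Txnip and Nfkbia had 0.656 (0.562 to 0.767) and 0.960 (0.784 to 1.18). In astrocytes 1 of 32 was higher and 1 lower, beside 4.75% and 11.4% of all genes. Txnip was at 27.2 CPM in the knockout library and 10.8 CPM in the wild-type library, a ratio of 2.52 (2.19 to 2.91), and Il18bp, the secreted inhibitor of interleukin-18, had a ratio of 0.640 (0.460 to 0.888). Nfkbia was at 1.45 (1.36 to 1.55), the alarmin Il33 at 1.17 (1.11 to 1.25), the antioxidant regulator Nfe2l2 at 1.21 (1.15 to 1.27) and the guanylate-binding protein Gbp5 at 0.726 (0.431 to 1.23). In monocytes, 10 of 35 were higher and 8 lower, beside 15.3% and 15.9% of all genes.

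Genes whose level over 20 points, each a cell type in a library, ran most like a member's were named by Pearson's r over 14812 genes, as a description. The points share libraries and free RNA. For Nlrp3 they were Tlr13 (0.986), Trpm2 (0.984) and Clec5a (0.980), for Il1b Wfdc17 (0.943), Lilrb4a and Mcemp1, and for Il18 Zfyve21 (0.945), Ckb and Appl2. For Pycard they were Otulinl (0.954), Sh3bp1 and Cmtm7, for Aim2 P2ry10b (0.942), Pou2f2 and Susd3, for Casp1 Snx20 (0.975), Hcls1 and Fmnl1, for Casp4 Itgb2 (0.937), Lcp1 and Myo1f, and for Gsdmd Tnfrsf1b (0.952), Il6ra and Tm6sf1. Nlrc4 had under 100 UMIs in gated cells and was left out.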

How the data were processed

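The authors deposited unnormalized UMI counts, 1 matrix of genes by cell barcodes for each library. Cell Ranger 4.0.0 produced them, per the file headers. Per the submitters' processing notes, the build was mm10, and R 4.0.3 and Seurat 3.0 were used. No annotation release is given in the sources used. Barcodes with under 500 genes or over 20% mitochondrial UMIs were removed, in all 1702 knockout barcodes (18.5%) and 1998 wild-type barcodes (27.9%). Scrublet, run in scanpy 1.11.5, called 216 knockout and 6 wild-type doublets by itself, so the highest scores were removed at 0.8% per 1000 barcodes, 549 knockout and 295 wild-type cells. The libraries shared 17 barcodes.

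Types were gated on marker levels (score at least 0.3, lead at least 0.1, at least 3 markers). A first gate on detection alone put cells with free hemoglobin RNA among erythroid cells and was replaced; both this change and the limits on score and lead were decided with the data in view, and 396 knockout and 537 wild-type cells lay near the limit. UMIs were summed per type and library and scaled to CPM. Intervals are Poisson, conditional binomial or Clopper-Pearson at 95%. A gene counts as past the fold at 1.5 with at least 20 UMIs over both libraries. Macrophages were gated but too few for ratios. In all, 4 divisions of a type were looked at (microglia by chemokines, neutrophils by granule genes, astrocytes by Gfap, neuroblasts by cycle genes), of which the first was planned. All 9 members are named, with pathway genes by a rule of largest ratio (at least 50 UMIs) and abundance, of which 1 gene is not reported here. The members and lists were chosen with earlier results of these data known. Alternatives were other cell filters, doublets kept, clusters, a stricter gate, equal weight per cell, trimmed mean scaling, thinning to 1000 UMIs, and, added after the data were seen, those without the top cell, by transcript length and within divisions. The calculations were tested on simulated data. The counts simulated for the ratio intervals held counting error alone, so the test does not cover spread between cells. Python 3.11.15, numpy 2.4.6, scipy 1.17.1 and pandas 2.3.3 were used.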

Additional observations from a re-analysis of the deposited data

Results flagged for a closer look

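Il1b moved in opposite directions in 2 myeloid types, with a knockout over wild-type ratio of 1.40 in monocytes and 0.751 in neutrophils. Both intervals leave out 1 but reflect counting error alone, without the spread between cells. The difference between the types was not tested. The neutrophil direction was not stable: it was 0.06 on the log2 scale with trimmed mean scaling. The ratio was 2.36 in the neutrophils with high granule genes, but these were only 8 knockout and 4 wild-type cells of an unplanned division. Il1b was also high in cells that passed no gate and so enter none of the comparisons between gated types. Ungated cells of cluster 17, classed as neutrophils, held 752 Il1b UMIs in 7 knockout and 12 wild-type cells. Only the alternative with Leiden clusters takes these cells in as neutrophils. Ungated cells of cluster 10 were led by H2-Eb1, H2-Ab1, Cd74 and Ear2. In this cluster Il1b was at 1128 CPM in 100 knockout cells and 1059 CPM in 62 wild-type cells. Nlrp3 there was at 33.7 CPM in the knockout library (22.6 to 48.4) and 56.9 CPM in the wild-type library (35.2 to 87.0).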

How the results depend on the processing

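No paired analysis was possible because each genotype has 1 library. Nlrp3 was lower in the knockout library under all 10 alternatives in microglia (log2 ratio -0.72 to -0.09), all 10 in neutrophils (-1.02 to -0.28) and all 8 in monocytes (-1.76 to -1.41). The stricter gate kept the same microglia and neutrophils as the main gate, so its agreement in these types was fixed in advance and adds no support. In monocytes the other filters and gates left 66 to 69 knockout and 20 to 22 wild-type cells, against 68 and 21. Agreement there was close to fixed in advance and adds little. The microglial value left its counting interval with each cell weighed the same (-0.24) and in cells without a Ccl3 or Ccl4 UMI (-0.09). Il1b in neutrophils was -0.60 with Leiden clusters, -0.69 under the granule gene threshold and 0.06 with trimmed mean scaling, which moved the ratios of that type by 0.48. Il18 in astrocytes was 0.26 with equal weights, 0.47 with trimmed means and 0.02 relative to genes of like transcript length. Casp1 in astrocytes turned from 0.85 to -0.04 with equal weights; the cause was not tested. Trimmed means left 3 members past the fold in neutrophils instead of 5, and 16 other pathway genes instead of 9. Pathway counts were 3, 5, 1 and 7 past 2-fold in microglia, neutrophils, astrocytes and monocytes, against 12, 9, 2 and 18 at 1.5-fold. Of all genes, 2.03%, 3.80%, 1.57% and 6.32% were higher past 2-fold in these types and 2.60%, 15.4%, 3.75% and 4.68% lower. At 1.5-fold with at least 50 UMIs the pathway counts were 4 in neutrophils and 7 in monocytes. Beside them, 8.22% and 9.81% of all genes were higher and 25.1% and 12.0% lower. In astrocytes the pathway counts were 4 with no filter, 6 with doublets kept and 4 with Leiden clusters. The share of all genes past the fold was not computed for these settings or for trimmed means. With no filter on cells, neutrophils held 48.4% of wild-type Il1b UMIs, and astrocytes 84.3% of knockout and 75.5% of wild-type Il18 UMIs. Leiden clusters named no monocytes or macrophages and gave no value there. With at most 108 cells, monocytes and neutrophils limit what can be read.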
